A study of Mus musculus with 2 samples.

Results

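The genes described here are the mouse Zfp genes expressed in the intestine. A gene was a member when its symbol was Zfp followed by a digit and its FPKM (fragments per kilobase of transcript, scaled to the mapped reads) was 3 or more in at least 1 of 2 libraries. The rule took 142 of the 357 Zfp genes in a table of 18919 genes, and 10446 genes of any name passed the same FPKM minimum. Members were thus chosen by the FPKM in both libraries, and their levels and ratios are given as a description.

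Both libraries came from intestine of 2-month-old C57BL/6 mice that carried the APCmin mutation, which shortens the tumour suppressor protein Apc and gives rise to intestinal adenomas. The control pool had the genotype APCmin and the knockout pool the genotype APCmin; Setd2IEC-/-, in which Setd2 was deleted in intestinal epithelial cells. RNA of 3 littermates was mixed for each library, and each genotype had 1 library, so no difference below has a replicate check. The RNA was from whole intestine, where cells outside the epithelium kept Setd2, and the driver of the deletion is not given in the sources used here.

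Zfp symbols mark zinc finger proteins, in most of which a chain of C2H2 fingers, each a short fold held together by a zinc ion, reads a stretch of DNA. Many carry a KRAB box as well, a protein domain that binds the co-repressor Trim28, which in turn brings the histone methyltransferase Setdb1 and silences retrotransposons and imprinted regions through methylation of lysine 9 of histone H3. KRAB zinc finger genes arose by tandem duplication and lie in clusters of related copies. Other Zfp proteins act as ordinary transcription factors, and a few bind RNA, such as the CCCH-type proteins Zfp36, Zfp36l1 and Zfp36l2, which speed the decay of mRNAs with AU-rich elements. Setd2 is the methyltransferase that places 3 methyl groups on lysine 36 of histone H3 along transcribed genes.

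The same linker recurs in the coding sequences of some of these genes, and it is shown first because different members share it. It typically joins neighbouring fingers and is known for the amino acids TGEKPY. Whether each linker found here lies between complete fingers was not tested. The letters searched on the coding strand were ACTGGNGANAANCCNTA, where N is any base, in the coding sequences of the GENCODE M21 annotation of mm10. They were present in 47 of the 142 members (33.1%) and in 231 of 16953 coding genes (1.36%), which include the members. Capitals mark the linker, with 15 bases on each side, for the first linker in 6 members. The first 4 form 2 pairs of close copies, Zfp266 is a member with a high ratio and Zfp948 one with a low ratio.
Zfp97: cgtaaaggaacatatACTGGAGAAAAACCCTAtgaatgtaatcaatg
Zfp960: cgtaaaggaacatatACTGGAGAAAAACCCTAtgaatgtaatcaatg
Zfp442: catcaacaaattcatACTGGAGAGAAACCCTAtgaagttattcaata
Zfp937: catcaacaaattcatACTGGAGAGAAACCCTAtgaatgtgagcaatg
Zfp266: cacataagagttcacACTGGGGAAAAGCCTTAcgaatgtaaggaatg
Zfp948: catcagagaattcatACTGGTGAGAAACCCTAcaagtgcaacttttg
Zfp97 and Zfp960 had 8 such linkers each and the same 47 bases around the first. Zfp442 had 10, Zfp937 had 7, Zfp948 had 6 and Zfp266 had 2.

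Setd2 was at 6.87 FPKM in controls and 3.47 after its deletion, from 513 and 254 expected counts. Expected counts, the reads that RSEM assigns to a gene, totalled 8809678 for the control pool and 8646358 for the knockout pool. Epithelial markers were high in both pools (9 of 9 genes, summed FPKM 4660 and 4982). Transcripts foreign to the intestinal wall differed between the pools: 18 genes of exocrine pancreas summed to 133 FPKM in the control and 2843 in the knockout, 9 genes of stomach to 3.14 and 68.3, and 5 red cell genes to 66.1 and 239.9. The stomach genes Gkn2, Muc5ac and Gif were listed at 0 in the control pool, and no other marker gene was at 0. In bulk RNA, fewer cells of a type and less RNA per cell cannot be told apart, and the part of these tissues in the Zfp values was not tested.

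Most Zfp members were present at low levels and differed little between the pools. Of the 142, 58 reached 3 to 5 FPKM in their higher library, 54 reached 5 to 10, 25 reached 10 to 30 and 5 reached 30 or more. The members' FPKM summed to 1177 (control) and 1248 (knockout), and they held 0.414% and 0.444% of all expected counts. Members reached the minimum in both libraries in 116 cases, through the knockout pool alone in 16 and through the control pool alone in 10. Just inside the minimum lay Zfp654 (2.46 FPKM in the control, 3.00 in the knockout), Zfp459 (3.02 and 2.83), Zfp87 (3.04 and 2.74) and Zfp839 (2.99 and 3.06). Just outside it lay Zfp120 (2.82 and 2.99), Zfp160 (2.80 and 2.95), Zfp280d (2.49 and 2.92) and Zfp84 (2.92 and 2.76).

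The ratio of knockout over control was taken as log2 after 1 FPKM was added to both values, which understates the difference of low genes. Over the members its median was 0.07, with quartiles of -0.06 and 0.23. Over all 10446 genes the median was 0.08, with quartiles of -0.10 and 0.27. Of the members, 92 (64.8%) lay above 0, against 62.3% of all genes; when the libraries were scaled by their median ratio, a log2 shift of 0.07, these shares were 50% and 51.9%. A gene was called when it was at least 2-fold higher or lower on this scale. By this rule 1 member was higher, Zfp703, and 1 lower, Zfp954, where 2.6% of all genes were higher, 1.1% lower and 3.7% either. Within 0.5 of 0 on the log2 scale were 133 members (93.7%), against 86.5% of all genes. Because the rule used these same values, nothing is read from the comparison of shares.

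**Figure D1:**
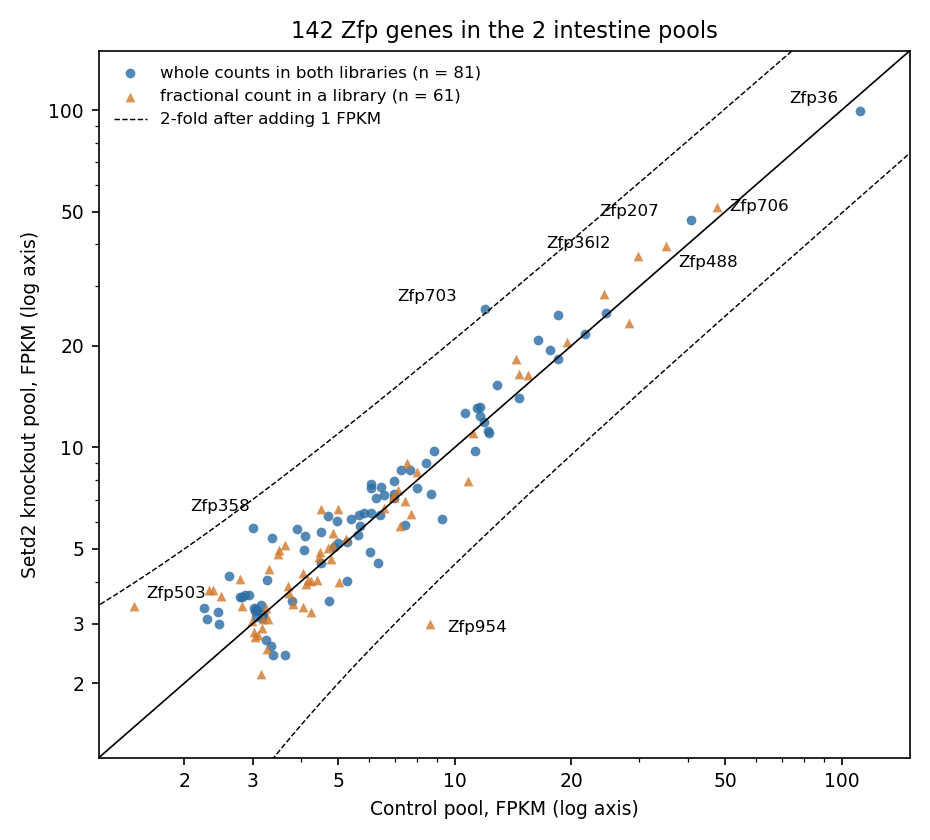
FPKM of the 142 Zfp members in the control pool (x axis, log) and the Setd2 knockout pool (y axis, log), 1 point per gene, with circles for the 81 genes whose expected counts were whole in both libraries and triangles for the 61 with a fractional count. The solid line is equality and the dashed lines are 2-fold after 1 FPKM was added; Zfp703 lies above the upper line and Zfp954 below the lower one, and the other 140 lie between them.

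For each gene the ratio of CPM (expected counts scaled to the library total) has a 95% interval. It was computed by the exact Clopper-Pearson method on the part of a gene's rounded counts that came from the knockout pool, and it covers counting error and no difference between mice or pools. The interval lay above 1 for 36 members and below 1 for 12, beside 30.5% and 14.6% of all genes. The members had between 52 and 2029 expected counts in their higher library, with a median of 166.5, and for 94 of them the interval spanned 1, so that a difference was not detectable at this depth.

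Zfp703 had the highest log2 ratio of all members. It is a developmental regulator of the NET family that represses transcription with Groucho co-repressors, and its human counterpart is amplified in some breast cancers. Its level was 11.95 FPKM in the control and 25.69 in the knockout, from 338 and 715 expected counts, both whole. The CPM ratio was 2.16 (95% counting interval 1.89 to 2.46) and the log2 ratio 1.04. The knockout library was thus the high one, by little more than the 2-fold rule, and with the libraries scaled by their median ratio the log2 ratio was 0.97. The gene lies on chromosome 8 (mm10, 26977336 to 26981462). Within 500 kb of it were 8 genes at 1 FPKM or more, itself included, of which 6 were above 0 and 2 below. Eif4ebp1, a repressor of cap-dependent translation chosen after its values were seen, was next highest at 14.26 and 21.74 FPKM.

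Zfp503, the close relative of Zfp703 and known for its role in the developing striatum, was also high in the knockout pool. It was at 1.48 FPKM in the control and 3.38 in the knockout, from 56 and 125.41 expected counts, a CPM ratio of 2.28 (1.65 to 3.18). Its log2 ratio after 1 FPKM was added was 0.82, below the rule, and it was 1.19 with nothing added. Both genes were therefore higher in the knockout pool, with CPM ratios whose intervals overlap, and in each pool Zfp503 was the lower one in FPKM. Zfp503 passed the minimum only through the knockout pool, so its direction was set by the rule and adds nothing to that of Zfp703. Neither coding sequence matched the C2H2 pattern used here. Their longest identical coding run was 20 bases, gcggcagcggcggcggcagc, shorter than the stretches of 50 bases used below to find shared reads.

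Zfp358 and Zfp593 followed in the order of ratios. Zfp358, a C2H2 gene on chromosome 8 with 9 fingers, was at 3.01 and 5.78 FPKM (53 and 100 counts, CPM ratio 1.92, 1.36 to 2.74). Zfp593, which helps export the precursor of the large ribosomal subunit, was at 3.36 and 5.4 FPKM (59 and 93 counts, 1.61, 1.15 to 2.26). Both rest on few reads, which the width of their intervals shows. Zfp322a, part of the pluripotency network of embryonic stem cells, was at 2.31 and 3.77 FPKM with a CPM ratio of 1.67 (1.30 to 2.18). The others of the 10 highest were Zfp64 (2.61 and 4.15), Zfp1 (2.37 and 3.77), Zfp266 (3.90 and 5.73), Zfp553 (4.5 and 6.55) and Zfp12 (2.79 and 4.08), with log2 ratios from 0.42 to 0.51. Like Zfp503, the genes Zfp322a, Zfp64, Zfp1 and Zfp12 passed the minimum only through the knockout pool and had to be higher there. At a rule of 1.5-fold the members called higher were Zfp703, Zfp503 and Zfp358, the member called lower was Zfp954, where 6.86% of all genes were higher, 3.12% lower and 9.98% either.

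Zfp954 had the lowest log2 ratio. It is a KRAB gene with 8 fingers on the minus strand of chromosome 7 (mm10, 7114683 to 7121476). Its level was 8.64 FPKM in the control and 3.00 in the knockout, from 155.68 and 53 expected counts, a CPM ratio of 0.347 (0.249 to 0.476) and a log2 ratio of -1.27. The control library was the high one, and at 3.00 the knockout value sat on the minimum that chose the members. The next lowest member was far from it: Zfp688, also a KRAB gene, was at 9.27 and 6.15 FPKM, from 83 and 54 counts (0.663, 0.462 to 0.945), a log2 ratio of -0.52.

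The other low members were Zfp472 (3.63 and 2.42 FPKM), Zfp948 (3.15 and 2.13), Zfp623 (6.32 and 4.54), Zfp871 (10.82 and 7.96), Zfp784 (3.38 and 2.42), Zfp865 (4.74 and 3.50), Zfp512 (5.26 and 4.01) and Zfp944 (4.24 and 3.25), with log2 ratios from -0.44 to -0.30. Zfp871 was the deepest of them, at 1051.34 and 758.96 expected counts, and its interval was accordingly narrow (0.736, 0.669 to 0.809). Zfp472, Zfp948 and Zfp784 passed the minimum only through the control pool and had to be lower in the knockout. Of the 10 lowest members 6 had a KRAB box and of the 10 highest 3, beside 51 of all 142 members (35.9%). These genes were picked by their ratios, so nothing is read from the counts.

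**Figure D2:**
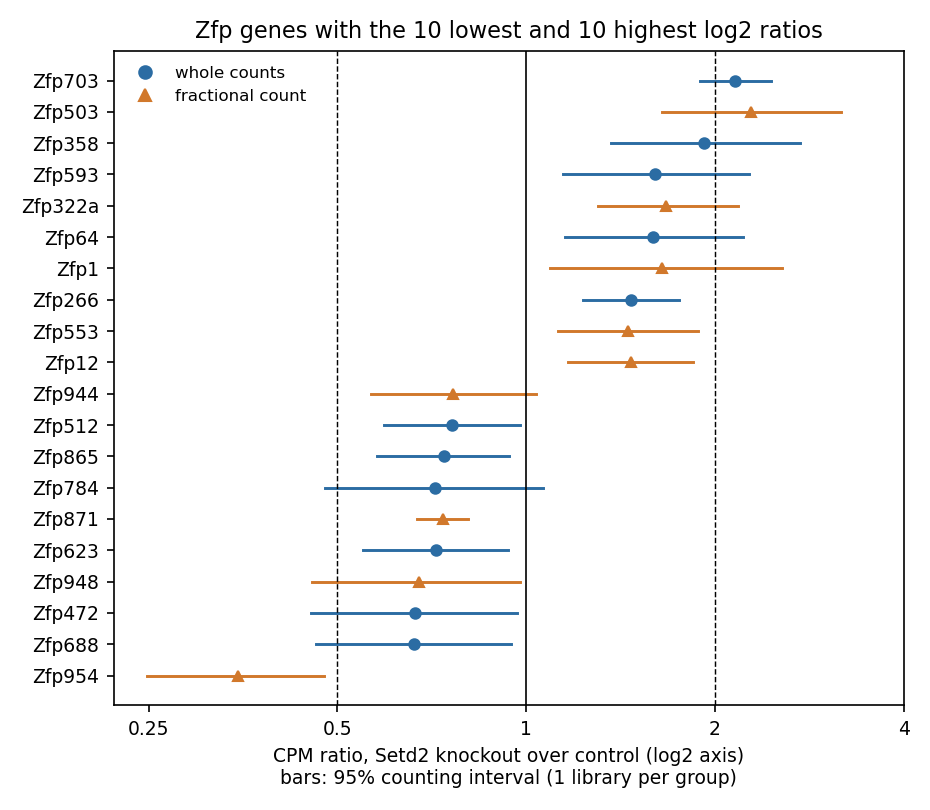
CPM ratio of knockout over control (x axis, log2) with its 95% counting interval for the Zfp members with the 10 highest and the 10 lowest log2 ratios of FPKM, in that order, with circles for whole and triangles for fractional counts and dashed lines at 2-fold. The intervals of the 10 highest lie above 1, those of Zfp784 and Zfp944 among the 10 lowest include 1, and Zfp954 at 0.347 stands apart from the other low members.

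The genes on one side of Zfp954 were low in the knockout pool too. Its cluster holds 4 Zfp genes (chromosome 7, 7114683 to 7209998), of which the others were below the FPKM minimum and are named because of their values. Zfp418 was at 1.09 FPKM in the control and 0.34 in the knockout (26 and 8 counts, CPM ratio 0.314, 0.123 to 0.713). Zfp772 was at 1.04 and 0.32 (25.64 and 7.82 counts, 0.311, 0.123 to 0.713), and Zfp773 was at 0.34 and 0.26 (8.99 and 6.90 counts, 0.782, 0.251 to 2.39). All 4 were therefore lower in the knockout library, with an interval that includes 1 for Zfp773. Their summed counts were 216.31 and 75.72, a ratio of 0.357 (0.272 to 0.468). The next expressed gene along the chromosome, Clcn4, which encodes a chloride-proton exchanger and is no Zfp gene, was at 17.79 and 3.51 FPKM from 656 and 128 counts, a ratio of 0.199 (0.163 to 0.241), so it was further apart than any Zfp member. On the other side lay the imprinted gene Peg3, higher in the knockout pool at 1.19 FPKM against 0.68 (69 and 40 counts, 1.76, 1.17 to 2.66). Within 500 kb of Zfp954, 6 genes reached 1 FPKM, itself included, of which 2 were above 0 and 4 below.

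Few stretches of 50 bases were shared exactly by Zfp954 and Zfp772. Zfp954 and Zfp772 have coding sequences of 1251 bases each, whose longest identical run, from coding base 40 to 118 in both, is shown because reads that fall within it fit both genes.
Zfp954 and Zfp772: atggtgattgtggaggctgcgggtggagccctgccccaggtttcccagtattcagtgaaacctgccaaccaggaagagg
Of the stretches of 50 bases in the Zfp954 transcript, 1.81% were also in Zfp772. Both genes were lower in the knockout pool, and so was the sum of the cluster, which does not depend on how reads were divided among its genes.

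**Figure D3:**
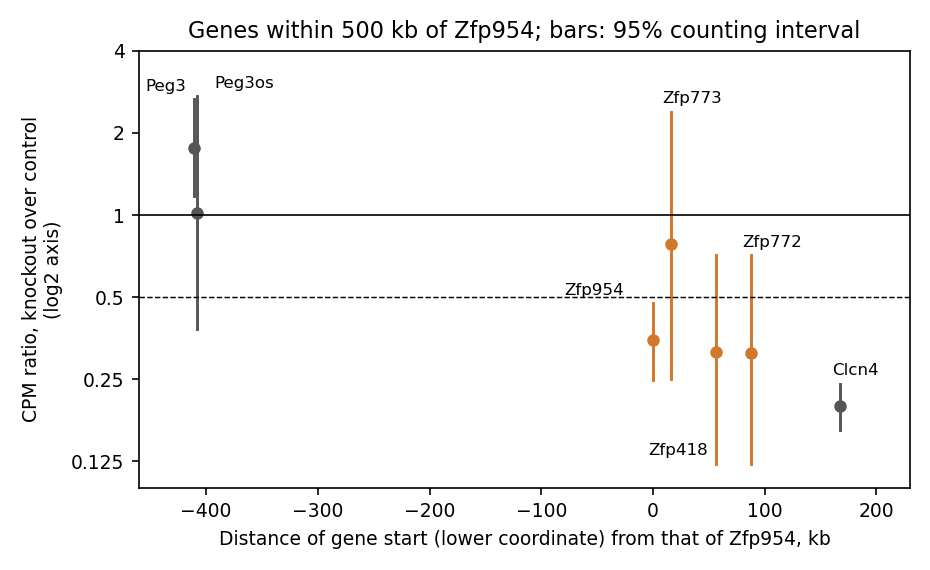
CPM ratio of knockout over control (y axis, log2) with its 95% counting interval for genes within 500 kb of Zfp954 that reached 1 FPKM, and for Zfp773, against the distance in kb between their lower coordinates and that of Zfp954 (x axis), with Zfp genes in orange and a dashed line at 2-fold lower. Zfp954, Zfp418, Zfp772 and Clcn4 (0.199) lie below 1 with their intervals, the interval of Zfp773 includes 1, and Peg3, on the other side, lies above 1.

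The promoters of the members at the extremes were taken from RefSeq (GRCm38.p6), as the 250 bases before the start site. They are shown for the member with the lowest ratio and for Zfp503, one of the 3 highest, on the minus strand in both cases; Zfp703 had no entry. Capitals mark a GC box (GGGCGG, either strand).
Zfp954, chr7:7121477-7121726: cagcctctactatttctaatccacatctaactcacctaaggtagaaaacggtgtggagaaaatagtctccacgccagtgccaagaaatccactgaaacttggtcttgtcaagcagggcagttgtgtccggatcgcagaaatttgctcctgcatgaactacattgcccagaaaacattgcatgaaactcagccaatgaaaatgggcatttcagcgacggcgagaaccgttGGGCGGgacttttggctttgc
Zfp503, chr14:21989602-21989851: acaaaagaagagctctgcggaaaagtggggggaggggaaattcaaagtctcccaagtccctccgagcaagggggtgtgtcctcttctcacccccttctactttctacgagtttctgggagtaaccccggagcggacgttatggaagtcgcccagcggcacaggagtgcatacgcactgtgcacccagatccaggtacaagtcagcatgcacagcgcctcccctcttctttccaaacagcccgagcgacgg
The Zfp954 window held 9 CG dinucleotides and 1 GC box, and the Zfp503 window 13 CG dinucleotides and no GC box. RefSeq windows were found for 118 of the 142 members, 147 windows in all. A GC box was in 51.7% of them and in 32.7% of the 32851 windows of all genes. The windows of all genes cover 27025 genes with no FPKM minimum, while the members had passed it, so the sets are unlike. The part of expression level in the gaps given here was not tested. The median number of CG dinucleotides was 14 in members and 6 in all windows. On either strand, the TCF/LEF core ATCAAAG, read by the effectors of Wnt signalling, was in 9 member windows (6.12%) and in 3.21% of all. The E-box CACGTG was in 8.16% and 6.02%, and the cyclic AMP response element TGACGTCA in 4.08% and 1.55%. Neither printed window held the last 3 motifs. These matches describe letters in a window of fixed length and say nothing of binding.

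The KRAB class was followed by a sequence pattern in the translated coding sequence, which misses degenerate boxes. The pattern was found in 51 members, with a median of 11 C2H2 fingers, and was not found in 91, with a median of 6. The members together had a median of 8.5 fingers and at most 29, in Zfp236, and 7 matched no C2H2 finger: Zfp36, Zfp36l1, Zfp36l2, Zfp703, Zfp503, Zfp330 and Zfp839. The median log2 ratio was 0.003 over the KRAB members, of which 26 lay above 0, and 0.11 over the others, of which 66 did. On the CPM scale the KRAB median turned to -0.005, and with median-ratio scaling it was -0.06 and that of the others 0.05, so the sign of the KRAB median depends on the scaling. None of the KRAB members was called higher and 1 was called lower, beside 2.6% and 1.1% of all genes. With 51 members these counts are not a result about the class. The linker was found in 64.7% of the KRAB members.

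Fractional expected counts were more common among the Zfp members than among other genes. A gene was fractional when its deposited count, given to 2 decimals, was not whole in either or both libraries, which arises when RSEM divides reads among genes that they fit equally. This held for 61 of the 142 members (43.0%) and for 21.3% of all genes. Among KRAB members it held for 37 (72.5%), and among the others for 24 (26.4%). The median log2 ratio was 0.04 over fractional members and 0.09 over whole ones, and with median-ratio scaling -0.03 and 0.03. Within the KRAB class it was -0.03 for fractional and 0.08 for whole genes, and outside it 0.14 and 0.11. Zfp954 is among the fractional genes, so the 81 whole members held 1 higher call, Zfp703, and 0 lower.

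**Figure D4:**
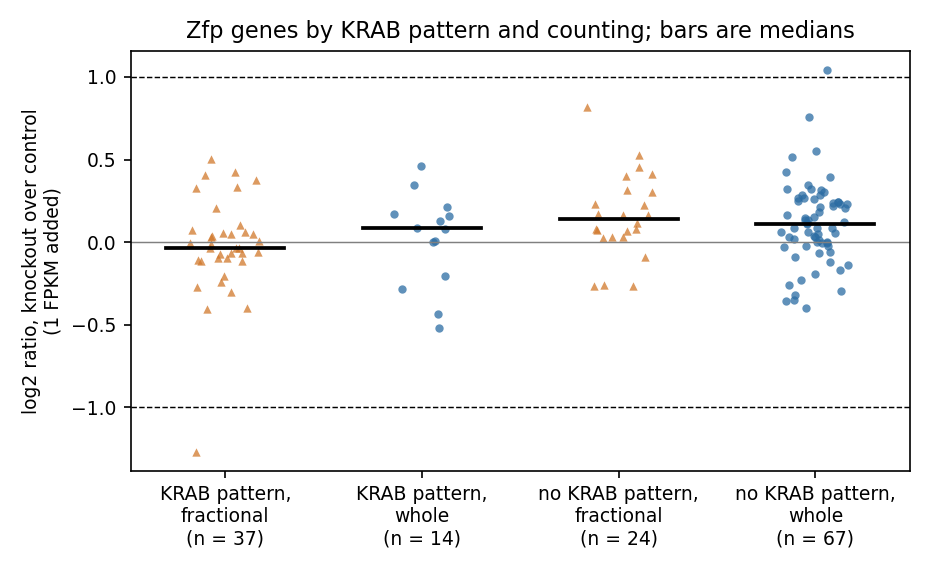
Log2 ratio of knockout over control after 1 FPKM was added (y axis) for the Zfp members, 1 point per gene, in 4 classes by KRAB pattern and by whole or fractional expected counts, with a bar at each class median and dashed lines at 2-fold. The medians lie between -0.03 and 0.14 and the classes overlap.

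Transcripts that share sequence were paired to see which values are uncertain. Of the 61 fractional members, 51 shared at least 1 stretch of 50 bases on the same strand or the other with another gene, and of the 81 whole members 10 did. All 11 members that shared 5% or more of their stretches with a gene on the same strand were fractional. Zfp960 and Zfp97 were the closest on the same strand: 81.4% of the Zfp960 stretches were in Zfp97, and their coding sequences were identical over the first 507 bases. Zfp960 was at 3.18 FPKM in the control and 2.91 in the knockout, and Zfp97 at 4.17 and 4.04. Their summed counts were 168.69 and 157.11, a ratio of 0.949 (0.757 to 1.18), so neither the single genes nor the sum differed detectably.

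The other close copies went different ways. Zfp937 was at 3.64 and 5.15 FPKM and its copy Zfp442 at 2.81 and 3.39, with an identical coding run of 271 bases. Their summed counts had a ratio of 1.32 (1.16 to 1.51), so the pair was higher in the knockout pool whichever gene its reads came from. Zfp955b (3.48 and 4.82) and Zfp955a, below the minimum at 1.83 and 2.45, summed to a ratio of 1.37 (1.11 to 1.69). Zfp869 was at 7.72 and 6.36 and Zfp868 at 4.05 and 4.23, with a sum of 0.882 (0.747 to 1.04), and Zfp944 and Zfp942 (4.12 and 3.92) summed to 0.865 (0.709 to 1.05). For Zfp869 and Zfp868 the members had opposite signs and the sum did not differ detectably.

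Sequence shared with the reverse strand of another gene was counted separately, since no source used here says whether reads were counted by strand. In the GENCODE M21 transcripts, 7 members shared 5% or more of their stretches in this way. Zfp335 overlaps Pcif1, Zfp511 overlaps Tubgcp2 and Zfp276 overlaps Fanca on opposite strands at 1 locus each. Zfp422 on chromosome 6 and Zfp955b on chromosome 17, the 2 with fractional counts, share theirs with each other and lie on different chromosomes. Zfp784 shared 94.7% of its stretches with a longer GENCODE transcript of Zfp865 on chromosome 7. By the RefSeq positions used here Zfp865 ends at 5033226 and Zfp784 starts at 5034446, so these gene models do not overlap, and which model lies behind the deposited counts was not tested. Their counts were whole, 64 and 45 for Zfp784 and 167 and 121 for Zfp865, and their log2 ratios were -0.36 and -0.35, both among the 10 lowest members. The sum had a ratio of 0.732 (0.596 to 0.898).

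Members were found on 18 chromosomes, most on chromosome 7 (27) and chromosome 17 (18). Zfp genes of the table were joined into a cluster when the gap between neighbours was at most 500 kb. By this rule 60 members lay alone, with a median log2 ratio of 0.11, 32 lay in clusters of 2 to 4, with 0.07, and 50 in clusters of 5 or more, with 0.02 (-0.04 with median-ratio scaling). The summed counts of the clusters are given with their ratio and its counting interval. On chromosome 17 (32765496 to 33631716) 5 members had summed counts of 1391.93 and 1116.78, a ratio of 0.817 (0.755 to 0.885), of which Zfp871 held the largest share. Without Zfp871 the sums were 340.59 and 357.82 and the ratio turned to 1.07 (0.92 to 1.24), so the direction of this cluster rests on that 1 member. On chromosome 7 (127233061 to 127885996) 8 members summed to 1.18 (1.11 to 1.26), although Zfp688 in the same cluster was among the lowest and Zfp553 among the highest members. It lay between 1.14 and 1.23 when each member was left out in turn. On chromosome 6 (47815536 to 48621548) 6 of 6 members lay above 0, beside 62.3% of all genes, with a sum of 1.11 (1.01 to 1.23). The lower end of that interval fell below 1 without Zfp467, Zfp746 or Zfp777. The log2 ratios of Zfp282 (0.007) and Zfp956 (0.03) were smaller than the shift of 0.07 in median-ratio scaling. With 6 members this count is not a result about the cluster, and its sum was not recomputed with that scaling. On chromosome 17 (21008941 to 23599755) 8 members, of 20 Zfp genes there, summed to 0.933 (0.844 to 1.03). The cluster with the most Zfp genes, 24 on chromosome 13 (67038594 to 67827000), had 3 members and a sum of 0.997 (0.867 to 1.15).

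None of the 6 most abundant members carried the KRAB pattern. Zfp36, tristetraprolin, which binds AU-rich elements in cytokine mRNAs, was at 111.72 FPKM in the control and 99.40 in the knockout (1734 and 1514 counts, CPM ratio 0.890, 0.830 to 0.954). Its relative Zfp36l2 was at 29.75 and 36.90 (1.24, 1.14 to 1.35), and Zfp36l1 at 15.49 and 16.44 (1.06, 0.924 to 1.22). So within the family the interval lay below 1 for the most abundant gene, above 1 for the next and across 1 for the last; with median-ratio scaling the log2 ratio of Zfp36l1 was 0.01. Zfp36l3 was below the minimum, at 2.55 in both. Zfp706 was at 47.65 and 51.78 FPKM (1.09, 1.02 to 1.16). Zfp207, which carries Bub3 to kinetochores in mitosis, was at 40.71 and 47.33 (1.15, 1.05 to 1.26). Zfp488, a partner of Olig2 in oligodendrocytes, was at 35.08 and 39.49, and Zfp277 at 24.30 and 28.55.

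Partners of the CCCH proteins were followed as lists. The CCR4-NOT deadenylase, with the linked Tob and Btg proteins, is the complex that tristetraprolin recruits. All 14 genes in the table passed the minimum, with a median log2 ratio of 0.05, 8 above 0 and 0 past 2-fold in either direction. The interval lay above 1 for 2 and below 1 for 1. Over all genes, 3.7% were past 2-fold in either direction, and the interval lay above 1 for 30.5% and below 1 for 14.6%. The deadenylase subunit Cnot8 was highest at 16.83 and 22.66 FPKM, Cnot4 lowest at 5.25 and 4.21, and Tob1 most abundant at 101.40 and 97.74. Immediate early genes, induced with Zfp36 by growth factors and stress, numbered 15 of 21 at the minimum, with a median of -0.10. Of these 15, 6 were above 0 and 0 past 2-fold, with an interval above 1 for 2 and below 1 for 7. The same shares of all genes stand beside these counts. Atf3 was at 26.12 and 15.82 FPKM, Dusp1 at 12.97 and 9.60, and Myc, the highest, at 5.80 and 10.04.

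Of 13 Zfp genes with roles in RNA processing and translation, 8 were members, with a median of 0.01, 4 above 0 and 0 called. Over all genes, 3.7% were called in either direction. Zfp593 was highest, as given above. Zfp622, which acts late in the maturation of the large ribosomal subunit, was at 11.39 and 13.04 FPKM, and Zfp598, the ubiquitin ligase that senses collided ribosomes, at 24.54 and 25.04. The RNA-binding proteins Zfp106 (18.43 and 18.32) and Zfp638 (6.42 and 6.29), the splicing-linked Zfp326 (7.43 and 6.92) and Zfp830 (5.02 and 4) made up the rest with Zfp207. Apart from Zfp593 and Zfp207, the interval of each of these included 1.

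Zfp genes that act on imprinted regions and retroviruses were at modest levels. Of 6, 3 were members: Zfp445, which guards imprinting control regions, at 11.62 and 13.19 FPKM (1.13, 1.02 to 1.26), Zfp809, which silences murine leukaemia proviruses, at 8.84 and 9.77 (1.06, 0.824 to 1.36), and Zfp932 at 5 and 6.56 (1.31, 0.987 to 1.74). Their median was 0.17 and all 3 were above 0, with the interval above 1 for Zfp445 alone. Of all genes, 62.3% were above 0 and 30.5% had an interval above 1, and with 3 members these counts are not a result about the list. Zfp57, the other guard of imprints, was below the minimum at 1 and 0.81. The members of the Z3 complex, Zfp592 (8.44 and 9.01) and Zfp687 (6.57 and 7.24), had log2 ratios of 0.08 and 0.12.

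Among 22 Zfp genes known as transcriptional regulators or cofactors, 14 were members, with a median of 0.15, 12 above 0 and 1 called higher, Zfp703. Of all genes, 62.3% were above 0 and 2.6% were called higher. The interval lay above 1 for 6 of these members and below 1 for 1, beside 30.5% and 14.6% of all genes. Zfp503, Zfp322a and Zfp516 passed the minimum only through the knockout pool and so had to be higher there. Nothing is therefore read from these counts. Zfp219 was at 16.41 and 20.75 FPKM (1.26, 1.11 to 1.44), Zfp516, a factor of brown fat, at 2.29 and 3.09 (1.35, 1.09 to 1.67), and Zfp143, which binds promoters and chromatin loops, at 6.06 and 7.59 (1.25, 1.01 to 1.55). Zfp131 was the lowest, at 6.04 and 4.89 (0.784, 0.623 to 0.985). For Zfp219, Zfp516 and Zfp143 the interval lay above 1, as it did for Zfp703, Zfp503 and Zfp322a, given above. For Zfp131 it lay below 1. The rest were close between the pools: Zfp91, a ubiquitin ligase (21.65 and 21.64), Zfp384 (17.64 and 19.49), Zfp335 (7.65 and 8.56), Zfp263 (6.95 and 7.29), Zfp110 (6.90 and 7.10), Zfp217, amplified in breast cancer (6.25 and 7.06), and Zfp148, which binds GC-rich promoters (4.70 and 5.03).

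The co-repressors that KRAB zinc finger proteins use were mostly higher in the knockout pool by less than 2-fold. Of 29 genes of this machinery in the table, 26 passed the minimum, with a median log2 ratio of 0.23 beside 0.08 for all genes, 21 above 0 and 0 called in either direction, beside 3.7% of all genes called. The interval lay above 1 for 17 and below 1 for 1, beside 30.5% and 14.6% of all genes. Smarcad1, a remodeller that works with Trim28, was at 2.27 and 4.29 FPKM (1.82, 1.42 to 2.34), and the H3K9 methyltransferase Suv39h1 at 5.33 and 9.16 (1.72, 1.4 to 2.12). Chd3, a remodeller of the NuRD complex, was the most abundant and the lowest, at 52.57 and 39.26 (0.747, 0.709 to 0.786). Trim28 itself was at 26.85 and 36.64 (1.36, 1.24 to 1.5) and Setdb1 at 7 and 8.58 (1.22, 1.04 to 1.43); these 2 were picked after their values were known. The KRAB members had a median of 0.003 in the same libraries. Proliferation genes moved with this list, with 11 of 11 above 0, a median of 0.37 and summed FPKM of 232 and 332 over 12 genes, and their part in it was not tested.

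**Figure D5:**
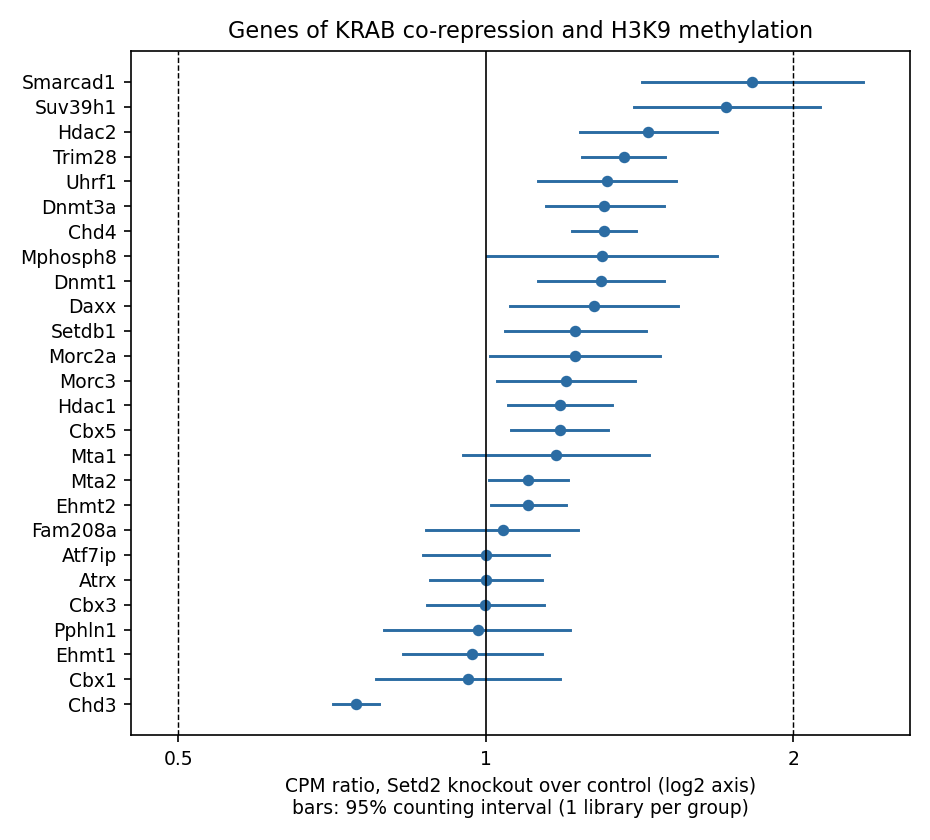
CPM ratio of knockout over control (x axis, log2) with its 95% counting interval for the 26 co-repressor genes at 3 FPKM or more, in order of ratio, with dashed lines at 2-fold. The interval lies above 1 for 17 genes and below 1 for Chd3 alone.

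Values of other zinc finger families are given for comparison. Of the Zbtb genes, which pair C2H2 fingers with a BTB domain, 22 of 42 passed the minimum, with a median of 0.10 and 13 above 0. Of the Klf genes, 10 of 15 passed, with a median of -0.06 and 3 above 0. Of the Zscan and Zkscan genes, which carry a SCAN domain, 9 of 22 passed, with a median of 0.24 and 6 above 0. In each of these families 0 genes were past 2-fold, beside 3.7% of all genes, and with 22, 10 and 9 genes this count is not a result about the families. Genes named Zfp without a digit were Zfpl1, at 19.32 and 15.91 FPKM, and Zfpm1, a cofactor of GATA factors, at 33.78 and 41.02.

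Members at higher levels had slightly higher medians. Of the members with a mean of less than 5 FPKM there were 68, with a median log2 ratio of 0.05, where all genes in that range had 0.16. The 45 members from 5 to 10 FPKM had 0.06 beside 0.09, and the 29 members at 10 or more had 0.12 beside 0.06. Members that passed the minimum only through the library where they were high had to differ in that direction, so these medians describe the members and support nothing.

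Markers of other cell types in the wall gave the following values, with FPKM summed over all genes of a list and medians over those at the minimum. Smooth muscle (8 of 8 genes, summed FPKM 512 and 503), T cells (6 of 7 at the minimum, 49.5 and 45.1) and enteric neurons (3 of 7, 15.2 and 15.1) had medians of -0.05, -0.07 and -0.17. The 3 neuron genes at the minimum alone summed to 11.1 and 11.25 FPKM, with 1 above 0 and 2 below. Fibroblasts (7 of 7, 101 and 119) and endothelium (5 of 6, 24.7 and 33.8) had 0.17 and 0.28. Epithelial, stomach, red cell and pancreas lists had medians of 0.17, 3.09, 1.68 and 4.49. The part of any of these cell types in the ratios of Zfp703, Zfp954 or other Zfp members was not tested.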

How the data were processed

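Gene expression was measured by RNA sequencing in 2 pooled intestine samples. The authors used BWA, Bowtie2, RSEM and the build mm10, per the submitters' processing notes; versions are not given in the sources used here. Per the file headers, the deposited tables hold for each gene the FPKM, the RSEM expected count and the transcript length. FPKM were used as deposited, and expected counts were scaled to the library total (CPM) and rounded for the intervals alone. A floor of 3 counts is 0.341 CPM in the control and 0.347 CPM in the knockout library.

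The members, gene lists and rules were chosen with earlier results of these data known. No test was possible with 1 library per group; genes were described by the log2 ratio after a pseudocount of 1 FPKM, called at 2-fold, and by the interval of the CPM ratio. Single members named were Setd2 as a check of the labels, the 10 highest and 10 lowest log2 ratios with 50 or more expected counts, the 6 highest mean FPKM, the 4 nearest to the minimum on each side, members past 2-fold, members of the role lists and the closest copies. For other lists, named genes were up to 2 highest, 2 lowest and the most abundant. Sequence patterns and shared stretches of 50 bases came from GENCODE M21 transcripts, and promoters from RefSeq GRCm38.p6. The call rule and intervals were tried on simulated counts that held counting error alone, with true differences either absent or larger than 2-fold. They are thus no check on differences between mice or pools, or on calls near the 2-fold rule. Alternatives were other pseudocounts, CPM, rescaling to TPM, median-ratio scaling, a 1.5-fold rule, other FPKM minimums and whole counts only. Python 3.11.15, pandas 2.3.3, numpy 2.4.6, scipy 1.17.1, matplotlib 3.10.9 and Biopython 1.88 were used. The summary of the B cell markers is not reported here.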

Additional observations from a re-analysis of the deposited data

How the results depend on the processing

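Each pool was 1 library of 3 littermates, so differences between mice, litters and pools cannot be told apart from the genotype, and depth limited single members with few counts. No paired analysis was possible because each group had 1 library. The number of members called higher was 2 (Zfp703 and Zfp503) with a pseudocount of 0.1, with none or on the CPM scale, 3 at a 1.5-fold rule and 0 with median-ratio scaling, where the median over the members was 0.0036. Members called lower numbered 0 among genes with whole counts, since Zfp954 is fractional. At 1.5-fold, 2 co-repressor genes were called higher and 9.98% of all genes were called. Zfp703 was at 0.97 with median-ratio scaling, and Zfp503 at 1.14, 1.19 and 1.08 with a pseudocount of 0.1, with none and with CPM. Zfp503 is a member through the knockout pool alone, so its direction was set by the rule. Of 245 recomputed values for 49 named members, 241 stayed on the same side of the 2-fold rule. Of the named members, 5, none of them called, turned sign under 1 scaling each: Zfp106 and Zfp91 with TPM, and Zfp110, Zfp263 and Zfp598 with median-ratio scaling, all within 0.06 of 0 as deposited. The summed ratio of the chromosome 17 cluster of Zfp871, 0.817, was 1.07 without that member, an alternative chosen after seeing the data. Whether the FPKM minimum was 1, 3, 5, a mean of 3 or absent, 1 member was called higher and 1 lower. Zfp703 and Zfp954 passed all of these minimums, and the added 1 FPKM held down the ratios of the low genes let in. The equal counts are therefore no check of the calls.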

Other observations

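Zfp genes below the FPKM minimum are described here by values chosen after they were seen. Of 210 such genes listed in a library, the median log2 ratio was 0.05, 118 lay above 0, 0 were past 2-fold after 1 FPKM was added, 5 were at least 1.5-fold higher and 3 lower. Since 103 of them were below 1 FPKM in both libraries and could not reach 2-fold on this scale, the count of 0 says nothing about those. The higher genes were Zfp385b, which encodes an RNA-binding protein (1.30 FPKM in the control and 2.6 in the knockout, 32 and 62 counts, CPM ratio 1.97, 1.27 to 3.13), Zfp37 (0.61 and 1.68), Zfp691 (1.47 and 2.73), Zfp951 (0.34 and 1.03) and Zfp566 (0.20 and 0.96, from 3 and 14 counts). The lower genes were Zfp949 on chromosome 9, at 2.70 and 1.27 FPKM from 83.99 and 38.71 counts (0.470, 0.315 to 0.699), and Zfp418 and Zfp772 beside Zfp954.

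Zfp410, a factor known for its narrow action on the gene of the remodeller Chd4, was the seventh member by mean level and is named here because of its values. It was at 28.27 FPKM in the control and 23.44 in the knockout, from 674.03 counts in the control, with a CPM interval of 0.736 to 0.925 that lay below 1. Chd4 was at 23.21 and 30.29 FPKM (CPM ratio 1.30, 1.21 to 1.4), so the 2 genes differed in opposite directions in these libraries. No test of a relation between them is possible with 2 libraries.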
